A study of Mus musculus with 19 samples.

Results

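The widest gap in intended thyroid hormone level among these fetal mouse cortices lay between dams given goitrogen alone and dams given a high hormone dose, and these 2 groups were compared directly. The hypo group had 5 arrays and the hyper group 4, so 9 of the 19 arrays of the study entered the comparison, chosen by their titles. The spread behind the p-values was estimated from all 19 arrays. All animals were C57BL/6 mice with no genetic change described, and each array held RNA from the cerebral cortex of 1 fetus on gestational day 16. Hypo dams drank water with 1% perchlorate, 0.025% methimazole and 2% sucrose from gestational day 13 and received a saline injection 12 hours before they were killed. Hyper dams drank water with 2% sucrose over the same days, and their injection held 100 µg T4 (thyroxine) and 10 µg T3 (triiodothyronine) per 100 g body weight. The water and the injection thus both differ, and what each contributes cannot be told apart. Control dams (5 arrays) had sucrose water and saline, and hypo_plus dams (5 arrays) had both the goitrogen water and a lower dose of 25 µg T4 and 2.5 µg T3 per 100 g. The goitrogen is called propylthiouracil elsewhere in the descriptions, so it is named here only as goitrogen. The dams, not the fetuses, were treated, and no hormone level of a fetus was among the data analysed here. It is not stated whether any fetuses came from 1 litter, and the p-values refer to the spread from fetus to fetus, which may be partly technical.

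Thyroid hormone acts mainly through nuclear receptors, encoded by Thra and Thrb, which sit on DNA with retinoid X receptors and switch from corepressors to coactivators when T3 binds. Membrane transporters bring T4 and T3 into the brain, and deiodinases convert T4 to active T3 or inactivate both. In the fetal cortex the hormone is known to influence the timing of neurogenesis, neuronal migration and axon growth, and before the fetal thyroid works it comes from the mother.

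Markers of cortical excitatory neurons were present on all arrays, with summed signals of 11382 to 19241 in hypo and 14361 to 18327 in hyper over 8 genes, and 0 of the 8 passed the test. Signals are the deposited linear probe set intensities. Summed signals of 6 choroid plexus markers were 14948 to 20167 in hypo and 10438 to 17385 in hyper. Those of 5 meningeal markers were 4014 to 8932 in hypo (median 5315) and 3211 to 17099 in hyper (median 4402). The top of that hyper range thus lay far above its median. No gene of these 3 marker lists passed the test and none of their genes had a mean signal under 32. Hyper replicate 4 went against the described female sex, with a signal of 97.2 for Xist, the RNA that silences an X chromosome, and 547 for the Y-linked Ddx3y. Hypo_plus replicate 1 read 68.8 and 696, whereas the other arrays read at least 3145 for Xist and at most 11.3 for Ddx3y. The arrays also differed in overall level. Among 11291 genes with a group mean of at least 100 units the median log2 deviation from the mean of all arrays was 0.030 to 0.095 in hyper and −0.096 to −0.001 in hypo, without overlap. Control arrays ranged from −0.116 to 0.108. Among 6676 dimmer genes the hyper arrays had −0.056 to −0.010 and the hypo arrays −0.008 to 0.015, so the difference there ran the other way. The part of this difference in the single results was not tested. Differences below are on the deposited scale, and small ones can change sign under another scaling.

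**Figure D1:**
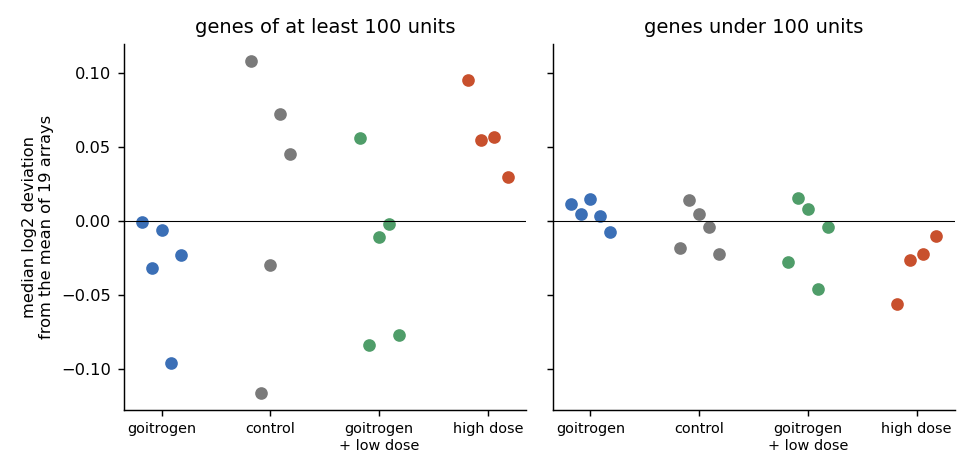
Median log2 deviation of each array (points, by group) from the mean of 19 arrays, for genes with a highest group mean of at least 100 signal units (left) and for dimmer genes (right). On the left all 4 hyper arrays (high dose) lie above all 5 hypo arrays (goitrogen), and the control arrays span both.

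Between goitrogen alone and the high dose, 216 of 17967 genes passed the threshold of an adjusted p under 0.05 in limma, which is 1.2% of all genes tested. Most were higher in hyper: 193 genes (1.07%) were higher and 23 (0.128%) lower. The sizes were modest, with a median log2 difference (hyper minus hypo) of 0.39 among the rises, from 0.23 to 1.68, and of −0.45 among the falls, from −0.29 to −0.71. Over all genes the median was 0.03, 10509 genes (58.5%) had a positive value and 2833 had an unadjusted p under 0.05. In 185 of the 193 rises all hyper arrays lay above all hypo arrays, and in 21 of the 23 falls all lay below. Over all genes 985 (5.48%) were separated upward in this way and 274 (1.53%) downward. The genes that passed in each direction also differed in brightness. The rises had a median signal of 640.1 and 5 of 193 (2.59%) had a mean under 100, whereas the falls had a median of 61.3 and 15 of 23 (65.2%) were under 100, against 39.2% of all genes.

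The number of these calls rested on single arrays and on the scaling, and the balance of directions on the scaling. Without hyper replicate 1, 2, 3 or 4 the count was 44, 45, 80 or 113, and without hypo replicate 1 or 2 it was 128 or 112. Of these, 41, 41, 73, 100, 120 and 101 were higher in hyper. Without both arrays of Y-linked signal 89 genes passed, 79 up and 10 down. Quantile normalization gave 77 calls, 45 higher and 32 lower, and median centring of the arrays 21, of which 11 were higher and 10 lower. Median centring lowered every difference by 0.11 and moved the median of all genes to −0.08. With all 3 scalings other than the deposited one, 13 genes passed. Klf9, Sema3c, Dbp, Sorl1, Taf15, Prrc2c, Bcl2l11, Zfp626, Bace1, Rflnb and Snrpd3 were higher in hyper in each, and Aldh2 and Tcl1b3 lower. The third scaling covered only the 11291 genes of at least 100 units, so dimmer genes could not pass all 3. The dim falls Cdcp3 and Zscan10 passed with quantile normalization and with median centring.

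**Figure D2:**
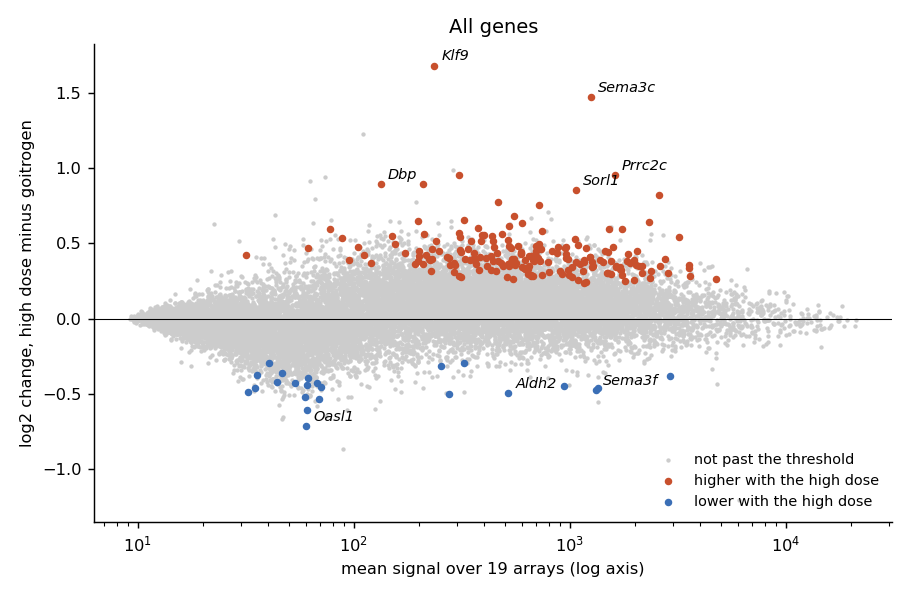
Log2 difference of hyper (high dose) minus hypo (goitrogen) for each of 17967 genes against its mean signal over 19 arrays on a log axis. Genes past the threshold are coloured, 193 higher and 23 lower, and Klf9 and Sema3c stand at the top with 1.68 and 1.47.

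Klf9 showed the largest difference. It encodes a Krüppel-like transcription factor whose gene the T3-bound receptor activates directly. The hypo arrays read 138, 143, 151, 155 and 153, and the hyper arrays 521, 487, 449 and 765. Every hyper array lay far above every hypo array, and replicate 4 was the highest. The means were 148 ± 7.48 (SD, n = 5) and 556 ± 143 (SD, n = 4), a log2 difference of 1.68 ± 0.13 (SE) with limma's adjusted p = 9.68e-07. Without both arrays of Y-linked signal it was 1.52. Control arrays had a mean of 130.1 and hypo_plus arrays of 175, and 0 arrays of these groups reached the lowest hyper array. Of the 6 other probe sets of Klf9, 4 passed in the same direction, with values over all 6 from 0.06 to 2.26, and the mean over its probe sets gave 0.88. Klf9 was the only one of 13 measured Krüppel-like factors that passed (1.2% over all genes). The list median was 0.09 (−0.04 with quantile normalization and −0.02 with median centring). All gene lists used here were written with earlier results of these data known, so a count within a list is no test of that list.

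Sema3c, which encodes a secreted semaphorin that guides axons and migrating cells, showed the next largest difference. Its signals were 639.9, 855, 909, 848 and 1032 in hypo and 2247, 2305, 2438 and 2645 in hyper. The hyper arrays lay close together and well above every hypo array, among which replicate 1 was lowest. The log2 difference was 1.47 ± 0.10 (limma's adjusted p = 4.44e-07), and the second probe set gave 0.98 and passed too. Control and hypo_plus arrays, with means of 927 and 1060, stayed below all hyper arrays. Among 12 measured class 3 semaphorins, neuropilins and plexins, the receptors through which these signals act, Sema3f moved the other way. Sema3f had 1605, 1527, 1551, 1612 and 1913 in hypo and 1043, 1075, 1308 and 1274 in hyper. Every hyper array was below every hypo array, and the control mean (1237) lay near hyper. Its log2 difference was −0.47 ± 0.10 (limma's adjusted p = 0.0345), but its 2 other probe sets had 0.03 and 0.14 and did not pass. The call was also lost in 12 of 34 alternatives. The other 10 genes of that list did not pass, and its median was −0.01.

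The promoters of Klf9 and Sema3c are shown because these genes carried the largest differences, and that of Tet1, a gene of the same direction described further on, because it holds the half-site letters searched for. The classical response element of thyroid hormone receptors is built from half-sites of the letters AGGTCA. Each window runs from 250 bases before to 50 bases after the annotated start in RefSeq's sequence of GRCm38.p6, 5′ to 3′ on the strand of the gene, with a match in capitals. The Klf9 window is chr19:23140976-23141275 on the plus strand, the Sema3c window chr5:17574566-17574865 on the plus strand, and the Tet1 window chr10:62887275-62887574 on the minus strand.
Klf9: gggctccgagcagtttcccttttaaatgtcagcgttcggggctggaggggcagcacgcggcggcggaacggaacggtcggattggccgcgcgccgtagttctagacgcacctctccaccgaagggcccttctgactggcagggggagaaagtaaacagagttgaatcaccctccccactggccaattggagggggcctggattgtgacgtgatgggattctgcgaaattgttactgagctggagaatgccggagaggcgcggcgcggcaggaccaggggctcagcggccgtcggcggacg
Sema3c: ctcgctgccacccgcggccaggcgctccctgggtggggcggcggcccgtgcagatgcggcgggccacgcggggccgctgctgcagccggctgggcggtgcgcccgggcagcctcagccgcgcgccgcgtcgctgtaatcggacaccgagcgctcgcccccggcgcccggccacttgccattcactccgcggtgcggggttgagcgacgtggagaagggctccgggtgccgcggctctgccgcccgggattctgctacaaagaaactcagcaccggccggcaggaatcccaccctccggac
Tet1: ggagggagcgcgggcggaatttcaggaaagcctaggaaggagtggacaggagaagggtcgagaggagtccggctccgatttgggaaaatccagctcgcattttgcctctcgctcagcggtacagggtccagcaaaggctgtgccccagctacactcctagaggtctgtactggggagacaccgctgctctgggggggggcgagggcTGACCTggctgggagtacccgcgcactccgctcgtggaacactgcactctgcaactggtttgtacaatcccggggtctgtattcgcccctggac
The letters were searched on both strands, with no mismatch allowed. The windows of Klf9 and Sema3c hold no AGGTCA, and that of Tet1 holds 1 on the opposite strand, read here as TGACCT, starting at base 207 of the window. The Klf9 window has 63.3% G and C with 28 CpG pairs, and the Sema3c window 75.7% with 42. Among the rises with a promoter in the table, 20 of 157 (12.7%) hold the letters at least once, and among the falls 3 of 16 (18.8%). Among all genes with a promoter, whether or not the arrays measured them, 4900 of 27025 (18.1%) do. That last set is thus wider than the genes tested. A match is a description of these letters and not a binding site.

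Dbp, Sorl1 and Rgs6 were higher in hyper than in every other group, by their means. Dbp encodes a PAR bZIP transcription factor that drives circadian output genes. It read 124, 103, 117, 80.0 and 106 in hypo and 223, 244, 208 and 217 in hyper. No hypo array reached the hyper arrays, and hypo_plus (mean 117) and control (mean 105) lay with hypo. The log2 difference was 0.89 ± 0.15 (limma's adjusted p = 0.00807), and its second probe set passed with 0.62. Among 16 measured genes of the clock and its output Dbp was the only one that passed (1.2% over all genes). In that list 8 had a positive value (58.5% over all genes). Clock itself had 0.07, which turns negative with median centring, Per1 −0.22 and Nr1d1 −0.14, and none of these passed.

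Sorl1, a sorting receptor of the Vps10 family in endosomes, read 816, 975, 791, 849 and 1043 in hypo and 1672, 1418, 1689 and 1770.1 in hyper. The groups were apart, with 896 in control and 969 in hypo_plus on the side of hypo. The log2 difference was 0.85 ± 0.11 (limma's adjusted p = 0.0012), and 1 of its 2 other probe sets passed, with 1.02. The 4 other measured Vps10 receptors did not pass. Rgs6, which shortens G protein signals, read 96.9, 77.3, 87.8, 71.8 and 87.2 in hypo and 137, 105, 172 and 137 in hyper. These groups did not overlap either, although hyper replicate 2 lay close to the highest hypo array. Its log2 difference was 0.54 ± 0.12 (limma's adjusted p = 0.0343). It did not pass in 14 of 34 alternatives, among them those 3 scalings and the fit without both arrays of Y-linked signal. Rgs3 also rose (0.39), so 2 of 16 measured RGS genes passed, against 1.07% of all genes called higher, with a list median of 0.16. The call of Rgs3 was lost in 12 of 34 alternatives, and 0 of the 16 passed with quantile normalization or median centring.

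**Figure D3:**
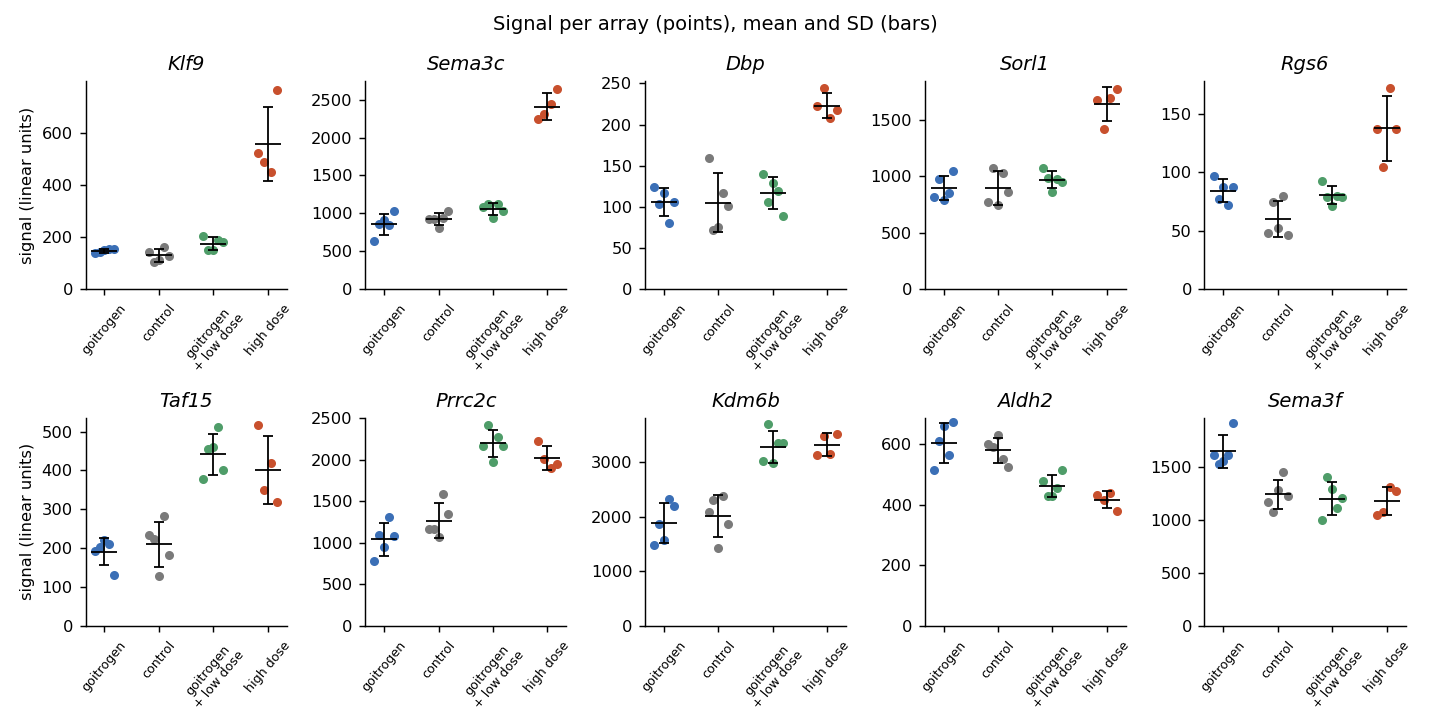
Signal of each array (points) on a linear scale for 10 genes, with mean and SD as bars, in the goitrogen (hypo), control, goitrogen plus low dose (hypo_plus) and high dose (hyper) groups. In the upper row the high dose arrays stand above all others, and in Taf15, Prrc2c and Kdm6b both hormone groups are high.

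A second set of genes was high in hyper and in hypo_plus alike. Taf15, an RNA-binding protein of the FET family, read 194, 202, 221, 211 and 129.9 in hypo and 516, 351, 419 and 319.99 in hyper. All hyper arrays lay above the hypo arrays, of which replicate 5 was the lowest. The log2 difference was 0.95 ± 0.17 (limma's adjusted p = 0.0125). The hypo_plus mean was 441, and 5 of 5 hypo_plus arrays reached the lowest hyper array. Without hyper replicate 1 the value was 0.83 and did not pass, and the other probe set had 0.23.

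Prrc2c, a protein of stress granules, had signals of 777, 1091, 955, 1306 and 1085 in hypo and of 2221, 2014, 1899.95 and 1951 in hyper. The groups were clearly apart, and the hypo_plus mean was 2201. The log2 difference was 0.95 ± 0.12 (limma's adjusted p = 0.0012), yet its 5 other probe sets had 0.00 to 0.38 and none passed, and with the mean of probe sets it was 0.33 and did not pass. Of the 25 measured nuclear and RNA granule transcripts 2 rose (1.07% over all genes), 18 had a positive value (58.5% over all genes) and the median was 0.19, which stayed positive with quantile normalization (0.16) and median centring (0.08). Malat1, a nuclear non-coding RNA, had 0.61, Atxn2 0.56 and Srrm2 0.55, and they did not pass.

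Chromatin enzymes held 4 rises among 26 measured genes, against 1.07% of all genes called higher. This list, like the others, was written with earlier results of these data known, so the share is no test of the list. Kdm6b, a demethylase of histone H3, read 1483, 1856, 1572, 2326 and 2186 in hypo and 3120.2, 3467, 3139 and 3515 in hyper. There was no overlap, and the hypo_plus mean of 3273 lay at the level of hyper. Its log2 difference was 0.82 ± 0.14 (limma's adjusted p = 0.00929), which missed the threshold with median centring at 0.71, and its 3 other probe sets had 0.18 to 0.47 without passing. Kmt2d, a methyltransferase of histone H3, had 0.63 ± 0.10 (limma's adjusted p = 0.00784), from 398 to 524 in hypo and 678 to 843 in hyper. Tet1, which oxidises methylated cytosine, had 0.44 ± 0.08 (limma's adjusted p = 0.0125), and a second of its 4 probe sets passed while the other 2 had −0.09 each. Hdac4, a histone deacetylase, had 0.40. The calls of Kmt2d, Tet1 and Hdac4 were lost in 3, 6 and 12 of 34 alternatives. In this list 20 of 26 values were positive with a median of 0.15, and with median centring 14 were positive, the median was 0.04 and 0 genes passed.

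The other named rises were Hmga2, Nbeal1, Camkk2, Bcl2l11 and Zfp626. Hmga2, a chromatin architectural protein of progenitors, read 197.5, 169, 131, 118 and 104 in hypo and 288, 318, 282 and 270.4 in hyper. The groups did not overlap, and the log2 difference was 0.89 ± 0.18 (limma's adjusted p = 0.0218). It was lost in 8 of 34 alternatives, among them quantile normalization and median centring. Camkk2, a kinase upstream of AMPK, had 0.75 with hypo arrays of 324 to 628 and hyper arrays of 783 to 1005, and its call was lost in 9 of 34 alternatives, the 3 other scalings among them. Bcl2l11, a pro-apoptotic BH3-only protein, had 0.68 with 355 to 523 and 648 to 807. Nbeal1 had 0.78 and the zinc finger gene Zfp626 0.66, and their calls were lost in 5 and 10 of 34 alternatives. For none of these 5 genes did another probe set pass.

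The falls were fewer and mostly in dim probe sets. Aldh2, the mitochondrial enzyme that oxidises acetaldehyde, read 514, 609, 657, 562 and 671 in hypo and 433, 415, 438 and 379.6 in hyper. Again the groups were separate, control (mean 579) lay with hypo and hypo_plus (mean 461) near hyper. The log2 difference was −0.50 ± 0.08 (limma's adjusted p = 0.00694). Its 4 other probe sets had −0.08 to 0.05, and the mean of probe sets gave −0.11 without a call. Tcl1b3, of the Tcl1 family, was also among the brighter falls, from 1440.5 to 1696 in hypo and 1086 to 1173 in hyper. Its log2 difference of −0.46 ± 0.08 (limma's adjusted p = 0.00797) passed in 33 of 34 alternatives. Only 1 probe set measured this gene, so no other probe set could be compared. Sox12, a SoxC transcription factor gene, had −0.45 with 1 hyper array inside the hypo range, and its 2 other probe sets had 0.05 and 0.20. It did not pass in 18 of 34 alternatives, among them quantile normalization and median centring. St3gal6, a sialyltransferase, had −0.50, and its call was lost in 21 of 34 alternatives.

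The remaining falls named here were dim. Oasl1, an interferon-induced gene, had the largest fall at −0.71 ± 0.16 (limma's adjusted p = 0.0343), from 73.0 to 100.1 units in hypo and 29.98 to 46.3 in hyper. Gsc2 (−0.60), a homeobox gene, Crx (−0.52), a homeobox gene known from photoreceptors, and Ghrhr (−0.53), the pituitary receptor of growth hormone-releasing hormone, had signals of at most 102 on all arrays of both groups. Cdcp3 (−0.48), 4930518P08Rik (−0.46) and Zscan10 (−0.45) were as dim. In all 7 genes the hyper arrays lay below all hypo arrays. Of 32 alternatives 11 lost the call of Oasl1, 16 that of Gsc2, 14 that of Crx, 23 that of Ghrhr and 6 that of Zscan10. Differences of dim genes are understated by the added 32 units.

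Among known participants of thyroid hormone action, single genes passed. Of 26 measured genes reported elsewhere as induced by thyroid hormone in neural tissue 2 rose, Klf9 and Dbp, against 1.07% of all genes called higher. In this list 15 had a positive value (58.5% over all genes), and the median of 0.05 became −0.07 with median centring. Camk4, a calcium-dependent kinase, had hypo signals of 222, 281, 324, 334 and 303 and hyper signals of 473, 437, 384 and 423. The groups did not overlap, but the log2 difference of 0.51 ± 0.14 missed the threshold (limma's adjusted p = 0.0694). Hr, a corepressor gene and classical hormone reporter, read 57.3 to 88.4 in hypo and 72.9 to 86.9 in hyper, and these ranges overlapped. Its log2 difference was 0.16 ± 0.13 (limma's adjusted p = 0.59). Shh had −0.01, the synaptic gene Nrgn 0.00 and the myelin gene Mbp 0.04 (−0.08 with median centring), none past the threshold. Of 10 measured genes repressed by the hormone 0 passed and 4 had a positive value. Their values ran from −0.35 to 0.52, with −0.34 for Trh and −0.27 for Dio2.

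The receptors themselves did not pass. Thra, at 3127 to 4174 in hypo and 2902 to 3598 in hyper, had a log2 difference of −0.10 ± 0.09. Thrb, at 20.2 to 39.2 units on these arrays, had −0.09 ± 0.07. Rxrb, a partner of both receptors, was the 1 gene of 18 receptors and coregulators that rose (1.07% over all genes). It rose by 0.26 ± 0.06 (limma's adjusted p = 0.0478), and its call was lost in 27 of 34 alternatives. Of 9 measured genes of transport and deiodination 0 passed and 8 had a negative value (58.5% of all genes had a positive one). Their median was −0.19, and −0.19 with quantile normalization. Median centring lowered every difference by 0.11 and gave −0.30, so it could not have turned a negative median. Dio2, the deiodinase that activates T4, read 83.0, 68.6, 75.3, 39.7 and 81.0 in hypo and 38.5, 38.6, 70.1 and 60.2 in hyper. The groups overlapped through hypo replicate 4 and hyper replicates 3 and 4, and the difference was −0.27 ± 0.15 (limma's adjusted p = 0.395). Slco1c1, a transporter of T4, had −0.03, the carrier gene Ttr −0.19, and Crym, which binds T3 in the cytosol, −0.46 ± 0.27 (limma's adjusted p = 0.422). None of these 3 passed.

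Genes that mark neuronal types and regions gave single calls, where 1.2% of all genes tested passed. In bulk tissue a smaller share of a cell type and less RNA per cell cannot be told apart. Cux2, a homeobox gene of upper layer neurons, rose by 0.52 ± 0.11 (limma's adjusted p = 0.0301), from 248 to 319 in hypo to 328 to 516 in hyper, the 1 call among 11 upper layer genes. Its call was lost with each of the other scalings. Of 12 deep layer genes 0 passed, and Ldb2 had 0.52 (limma's adjusted p = 0.0639). Ebf1, a transcription factor of striatal neurons, read 389, 447, 367, 420 and 385 in hypo and 712, 624, 515 and 528 in hyper. The groups did not overlap, and the means of 549 in control and 538 in hypo_plus lay near hyper. It rose by 0.52 ± 0.10 (limma's adjusted p = 0.0189), the 1 call among 14 striatal genes, and this call was lost in 9 of 34 alternatives, the other scalings among them. In that list 12 values were positive, and the median of 0.17 was 0.09 with quantile normalization and 0.06 with median centring. The summed signal of 6 striatal markers ranged from 2474 to 4561 in hypo and from 3774 to 4130 in hyper, and its part in the rise of Ebf1 was not tested. Of 17 genes of GABAergic interneurons 0 passed, and Dlx2 had 0.54 (limma's adjusted p = 0.091).

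Glial and non-neural lists held 1 call, where 1.2% of all genes tested passed. Gfap, the astrocyte filament gene, fell by 0.43 on the log2 scale (limma's adjusted p = 0.0478), from 71.0 to 95.6 units in hypo to 34.8 to 62.6 in hyper, and 9 of 11 astrocyte genes had a negative value. The call was lost in 23 of 32 alternatives. No gene passed among 17 of radial glia and Notch signalling, 13 of the oligodendrocyte lineage, 14 of choroid plexus, 13 of microglia, 14 of endothelium, 7 of erythroid cells or 15 of meninges. The largest difference from zero in the oligodendrocyte list was that of Mag (−0.40, limma's adjusted p = 0.0768), a myelin glycoprotein. Hes5, a Notch target of radial glia, had 0.52 (limma's adjusted p = 0.118).

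Metabolic and housekeeping lists gave single calls of small size, where 1.2% of all genes tested passed. Ebp, an isomerase of cholesterol synthesis, rose by 0.39, and 24 of 29 genes of that list had a positive value, but their median of 0.07 became −0.05 with median centring. Ndufc1, a subunit of respiratory complex I, rose by 0.28, the 1 call among 50 genes of oxidative phosphorylation. Hsph1, a chaperone, rose by 0.45 among 15 heat shock and cold-inducible genes. The calls of Ebp, Ndufc1 and Hsph1 were lost in 15, 17 and 21 of 34 alternatives, the 3 other scalings among them in each case. Of 39 cytosolic ribosomal protein genes, 34 cell cycle genes and 25 genes of hypoxia and glycolysis 0 passed. Mki67, a marker of dividing cells, had 0.38 (limma's adjusted p = 0.134), and Cdkn1b, an inhibitor of the cell cycle, −0.56 (limma's adjusted p = 0.138). Cdkn1b passed in 2 of 34 alternatives, median centring among them (−0.67, limma's adjusted p = 0.0436). Calls stood in 15 of the 42 lists. The median was positive in 30 lists, and in 22 of the 42 its sign turned with quantile normalization or median centring.

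Controls stood between both groups for most genes that passed. Of the 193 rises 180 had a control mean between the hypo and the hyper mean, 189 had hyper above control and 184 had hypo below control. The median log2 difference was 0.19 for hyper minus control and −0.20 for hypo minus control, and in 98 of 193 hyper was the farther group. Both differences share the control arrays. Of the 23 falls the control mean lay between in 20, with medians of −0.28 for hyper minus control and 0.22 for hypo minus control. These genes were chosen on the difference of the outer groups, which favours a control between them. Against control alone, 6 of the 193 rises passed in hyper and 0 in hypo, and of the 23 falls 0 passed in either.

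**Figure D4:**
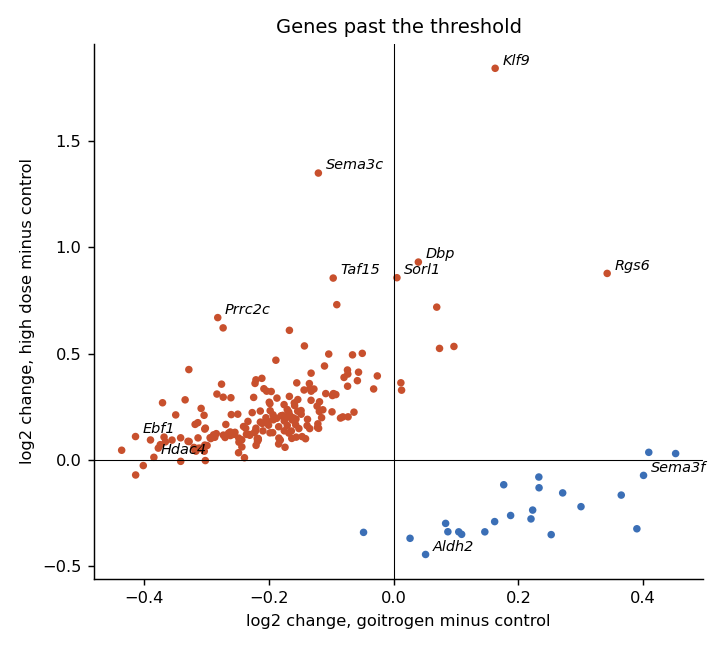
For each of the 216 genes past the threshold, the log2 difference of goitrogen (hypo) minus control on the horizontal axis and of high dose (hyper) minus control on the vertical axis. Most rises lie in the upper left, with hypo below and hyper above control, while Klf9, Dbp and Rgs6 lie to the right of the vertical line.

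A contrast of the midpoint of hypo and hyper with control asked which genes departed from a control halfway between. Of 17967 genes 3 passed (0.0167%), all with the midpoint above control, and 1112 had an unadjusted p under 0.05. Klf9 had a midpoint difference of 1.00 ± 0.11 (limma's adjusted p = 0.000407). Sema3c had 0.61 ± 0.09 (limma's adjusted p = 0.0101). Rgs6 had 0.61 ± 0.10 (limma's adjusted p = 0.0329). Their control means of 130.1, 927 and 60.4 lay near or below the hypo means of 148, 857 and 84.2 and far from the hyper means of 556, 2409 and 138. For Ebf1 and Sema3f, whose control means lay near hyper, the midpoint values were −0.15 and 0.16 and did not pass (limma's adjusted p = 0.85 and 0.831). Without both arrays of Y-linked signal 1 gene passed in this contrast.

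Of the 216 genes 151 had more than 1 probe set, and in 12 of them another probe set passed in the same direction and in 0 in the opposite one. In 85 all other probe sets had the same sign. Tested one by one, 427 of 34075 probe sets passed, 363 up and 64 down, and they belonged to 401 genes. Among 10962 probe sets without a single gene name 95 were higher and 18 lower.

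**Figure D5:**
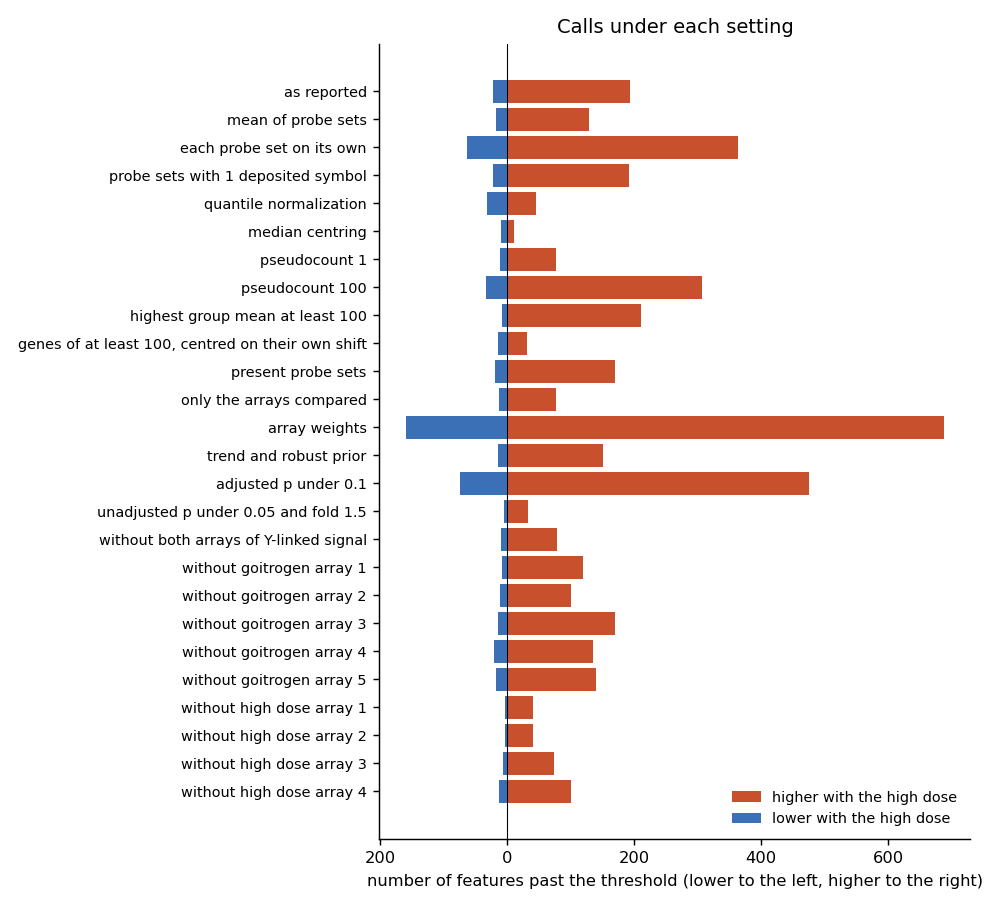
Number of genes (of probe sets where each was tested on its own) that passed under each setting, higher with the high dose to the right and lower to the left. Of the settings plotted, array weights gave the most calls (846) and median centring the fewest (21).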

How the data were processed

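RNA from 19 fetal cortices was measured on Affymetrix arrays. The authors deposited 1 normalized intensity per probe set and array on a linear scale, from 7.99 to 29808, and per the submitters' processing notes MAS5 and RMA were used, with no version and with no statement of which made the values. The labels' protocols name a rat array, but the deposited identifiers are those of mouse. A deposited table of the authors' comparisons served for gene symbols and, in 1 alternative, present calls (on 28420 probe sets). The deposited fold changes, a signed score, and the deposited p-values were not used. Of 45101 probe sets 64 controls and those without a single current gene were left out. Symbols were updated through RefSeq's gene table for GRCm38.p6. Of 2003 probe sets with several symbols 32 were kept, and 34075 probe sets gave 17967 genes, each valued by its probe set of highest mean.

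Values were analysed as log2(intensity + 32) with lmFit and eBayes of limma 3.58.1 under R 4.3.3, as 4 group means over 19 arrays and 15 residual degrees of freedom. Adjusted p values are two-sided and Benjamini-Hochberg adjusted over all genes, with a threshold of 0.05. The arrays' number limits the precision. Pairwise correlations of the arrays were 0.976 to 0.993. The fit was tested on simulated data.

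The named genes are the 12 largest differences per direction past the threshold, members of 42 gene lists past it (up to 6 per list), preset thyroid hormone genes (1 of them is not reported here), the genes past the threshold in the midpoint contrast and, for lists without a call, the 2 of smallest p. The comparison, the lists and the named genes were chosen with earlier results of these data known. Bace1, Rflnb, Snrpd3, Atxn2, Malat1, Srrm2, Clock, Per1 and Nr1d1 were named after their values were seen. Alternatives changed the probe set rule, scaling, pseudocount, filter, arrays, weights, prior and threshold, and 1 scaling was added after the data had been seen.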

Additional observations from a re-analysis of the deposited data

Results flagged for a closer look

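In 9 of 126 groups of arrays tested, over the named genes, 1 array stood apart from its group by Dixon's criterion, which chance meets in about 1 group in 20. In Taf15 hypo replicate 5 read 129.9 (others 194 to 221). In Camkk2 hypo replicate 1 read 324 (others 566 to 628). In Sema3f hypo replicate 5 read 1913 (others 1527 to 1612). In Dio2 hypo replicate 4 read 39.7 (others 68.6 to 83.0). In Mag hypo replicate 2 read 101.7 (others 80.1 to 84.7). In Hsph1 hypo replicate 1 read 1306 (others 1765 to 1942). Among the hyper arrays, replicate 4 read 1499 for Ldb2 (others 1292 to 1309), replicate 3 read 1823 for Aldoa, a glycolytic enzyme (others 2151 to 2208), and replicate 1 read 9751 for Ttr (others 15549.8 to 15704).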

How the results depend on the processing

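The count of 216 genes (hyper against hypo) became 427 probe sets, of 401 genes, with each probe set on its own. It became 77 with quantile normalization and 21 with median centring. With genes of at least 100 units centred on their own shift, an alternative chosen after seeing the data, it became 45. It was 88 and 339 with pseudocounts of 1 and 100, 89 with only the arrays compared and 846 with array weights. It was 550 at an adjusted p under 0.1, 38 when a fold of 1.5 was required beside an unadjusted p under 0.05, and 89 without both arrays of Y-linked signal. Leaving out 1 array gave 44 to 289. The count of 3 in the midpoint contrast became 1 with the mean of probe sets, median centring, only the arrays compared or without both arrays of Y-linked signal, 5 with each probe set on its own or the centring of bright genes, and 10 at an unadjusted p with a fold of 1.5. Leaving out 1 array gave 1 to 3. The causes were not tested. With the replicate number as a block the counts were 97 over all arrays and 2 (Klf9 and Sema3c) within the arrays compared, and 1 in the midpoint contrast within the arrays compared. Correlations of same-numbered hyper and hypo arrays were −0.02, 0.15, −0.03 and 0.02, and 1 of 4 hyper arrays correlated best with its own number, so the numbers were not taken to pair the samples. No named gene past the threshold changed sign in the alternatives run with 1 value per gene. With each probe set on its own, other probe sets of some of them, such as Sema3f, Sox12, Aldh2 and Tet1, had the opposite sign. No alternative that measured Klf9 and Sema3c lost their calls, and none without a replicate block lost those of Dbp, Sorl1, Rflnb and Tcl1b3. Some named genes not past the threshold passed in alternatives, among them Aldoa in 5 of 34, Mag in 3 of 32 and Dlx2 in 1 of 34. Camk4, Ldb2 and Cdkn1b each passed in 2 of 34. Dim genes limit the falls: 15 of 23 had a mean signal under 100.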
